A study of Mus musculus with 6 samples.

Results

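The 10 genes described here encode enzymes, a transporter and a regulator that take part in the use of arginine by macrophages. They are Nos2, Arg1, Arg2, Ass1, Asl, Slc7a2, Gch1, Odc1, Oaz1 and Sat1. They were chosen by gene symbol, and all 10 were found among the 40773 symbols of the count table. Arginine is contested in macrophages. Inducible nitric oxide synthase, switched on by bacterial products, turns it into nitric oxide and citrulline, and the arginases turn it into urea and ornithine. Ornithine feeds the polyamines, small positively charged molecules that growing cells need, and their supply is held in check by antizyme and by acetylation.

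RNA was sequenced from RAW264.7, a mouse macrophage line (genotype given as plain), in 2 groups of 3 cultures described as biological triplicates. The first group received lipopolysaccharide (LPS, 100 ng/mL) with 3A2, an antibody that neutralizes the membrane protease MMP14, at 50 µg/mL. The second group received LPS at 100 ng/mL alone, and both were kept for 24 h. LPS was therefore common to all 6 libraries, and cells without LPS or with a control antibody were not analysed here.

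Libraries with LPS plus 3A2 held 6060732 to 6537419 counts and those with LPS alone held 6431096 to 7432553. All 11 macrophage markers examined were tested, and they summed to 6857 to 7316 CPM with 3A2 and to 7830 to 7882 CPM with LPS alone, without overlap; CPM is the count set against the library's total after TMM scaling. Lyz2 had the highest level of them, at 3660 to 4397 CPM over the 6 libraries, so the sum follows it most. Of these markers 9 lay below 0 on the log2 fold change scale and 2 above, with a median of -0.048. There were 3 lower at an unadjusted p under 0.05 by edgeR, against 3.09% of all genes tested. For 4 every 3A2 library lay below every LPS library, against 6.46% of all genes tested. Of the markers 0 were called, and the part of this in the results on the 10 genes was not tested. In bulk RNA, fewer cells of a type and less RNA per cell cannot be told apart. Mitochondrially encoded mRNAs summed to 25668, 21979 and 30934 CPM in 3A2 replicates 1, 2 and 3, and to 23582, 22319 and 21915 CPM with LPS alone. All 13 of these mRNAs lay above 0 on the log2 fold change scale, as did 5795 of 11498 genes tested, and 0 were called. At an unadjusted p under 0.05 by edgeR, 4 of the 13 were higher, against 3.43% of all genes tested. Replicate 3 with 3A2 had the highest mitochondrial sum of the 6 libraries. Values without it, or with this sum as a covariate, therefore stand beside results that they move.

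No member passed the test over all genes. A member counts as called when the adjusted p of edgeR's quasi-likelihood test is under 0.05 over all genes. Of the 8 members with enough counts to be tested, 0 were called, and of all 11498 genes tested 0 were called, a background of 0%. The smallest adjusted p among the members was 0.734. At an unadjusted p under 0.05, 1 member was higher (Sat1) against a background of 3.43% of all genes, and 1 was lower (Gch1) against 3.09%. The groups did not overlap for 3 tested members, 2 with every 3A2 library higher (Odc1 and Sat1) and 1 with every 3A2 library lower (Gch1). The background for this was 5.84% of genes on the higher side and 6.46% on the lower. DESeq2 and limma-voom also called 0 members. The median log2 fold change of the 8 was 0.016, and that of all genes was 0.0017. Arg2 and Slc7a2 had too few counts for a test.

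**Figure D1:**
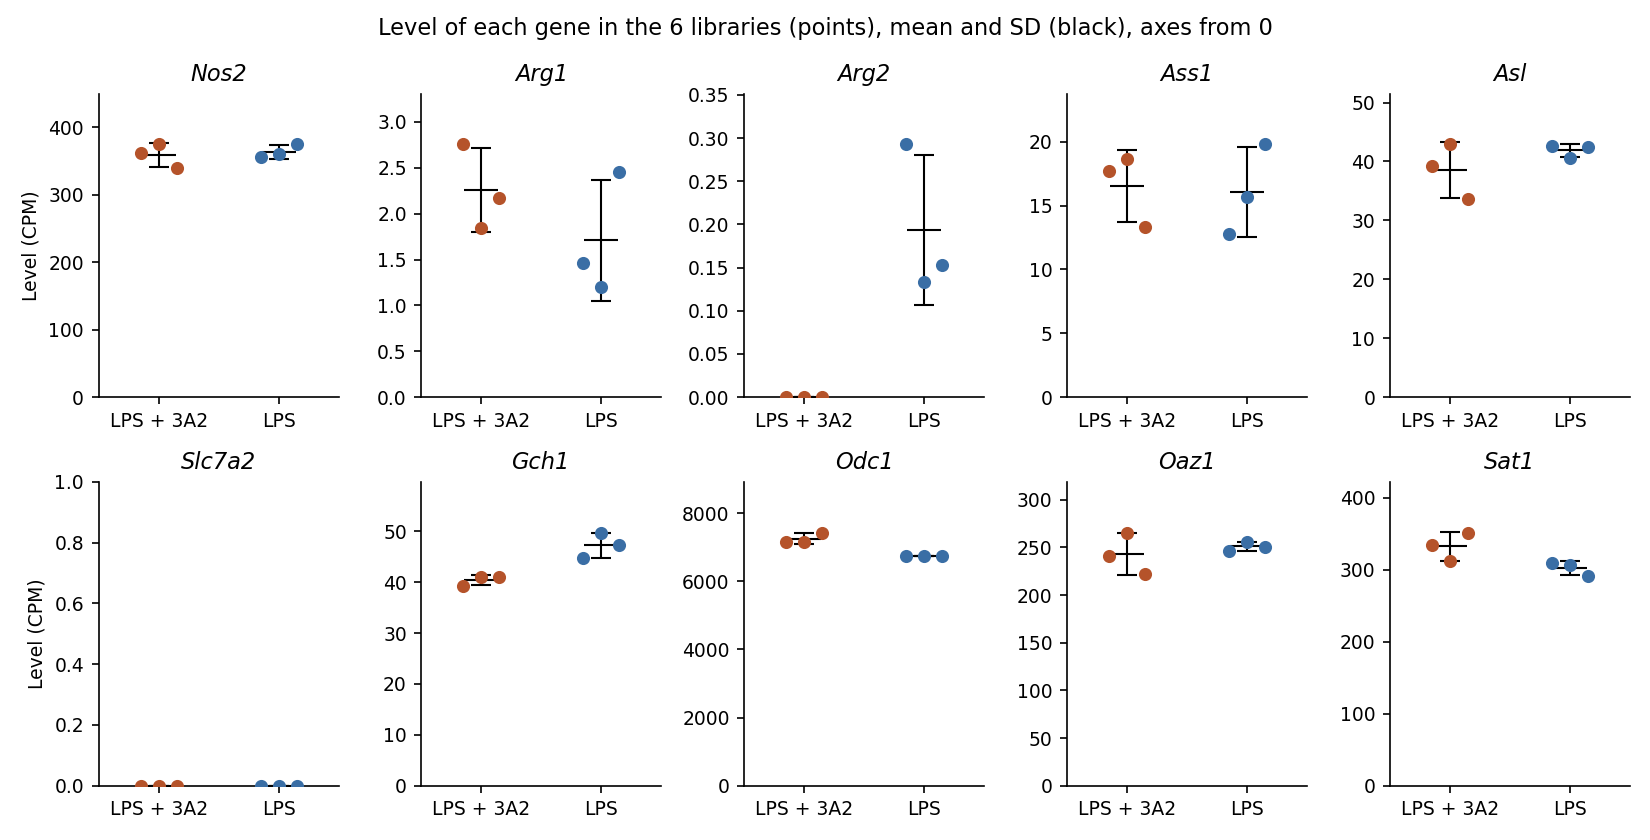
Level in CPM (linear axes from 0) of each of the 10 genes in the 3 libraries with LPS plus 3A2 (left in each panel) and the 3 with LPS alone (right). Points are libraries in the order of their replicate numbers, and black marks are the mean and SD. The groups lie close together for most genes, Odc1 stands at 6731 to 7431 CPM and Slc7a2 has 0 counts throughout.

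The levels spanned a wide range, led by the polyamine genes. Levels between genes are compared as CPM per kilobase of the longest coding transcript, averaged over the group. Odc1 stood at 3283 CPM per kilobase with 3A2 and 3054 with LPS alone. Sat1 followed at 286 with 3A2 and 260 with LPS alone, and Oaz1 at 227 and 234. Nos2 stood at 85.6 CPM per kilobase with 3A2 and 86.7 with LPS alone. Asl, Gch1 and Ass1 were lower, at 15.99, 14.6 and 9.76 CPM per kilobase with 3A2 and 17.4, 17.04 and 9.47 with LPS alone. Arg1 stood at 1.53 with 3A2 and 1.16 with LPS alone. Of the neighbours in this order down to Arg2, only Asl and Gch1 had ranges over the 6 libraries that overlapped.

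**Figure D2:**
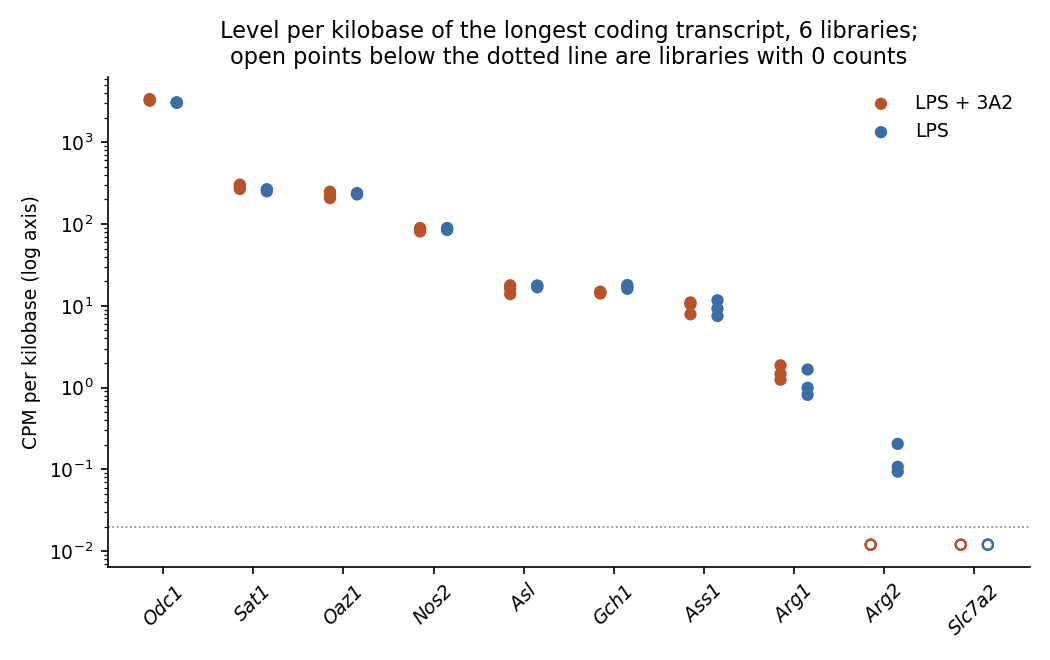
CPM per kilobase of the longest coding transcript (log axis) of the 10 genes in each of the 6 libraries, LPS plus 3A2 to the left of LPS alone. Odc1 lies highest, at 3049 to 3365 CPM per kilobase, and open points under the dotted line mark libraries with 0 counts, which are those of Slc7a2 and the 3A2 libraries of Arg2.

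Arginine supply was examined first. Slc7a2 encodes CAT2, a transporter of cationic amino acids that in macrophages is known for bringing in arginine for nitric oxide synthesis. It had 0 counts in each library with 3A2 and 0 in each with LPS alone. At these depths 0 counts allow up to 3 counts, counting error only. This is 0.462 to 0.501 CPM in the 3A2 libraries and 0.401 to 0.461 CPM in the LPS libraries. Whether the counting, whose program and annotation are not given, could assign reads to Slc7a2 was not tested. The related transporter Slc7a1, which encodes CAT1, had the highest CPM, without regard to length, of the 7 tested among 10 listed amino acid carriers, at 124 ± 7.78 CPM with 3A2 and 130 ± 5.14 CPM with LPS alone (SD, n = 3 each). Its fold change was 0.955 (95% interval 0.859 to 1.06). Another member of the family, Slc7a3, which encodes CAT3, had 1, 3 and 1 counts with 3A2, against 0, 1 and 4 counts with LPS alone, and was not tested.

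Ass1 and Asl encode argininosuccinate synthase and argininosuccinate lyase, the enzymes that remake arginine from citrulline. Ass1 had 17.7, 18.6 and 13.4 CPM with 3A2, against 12.7, 15.7 and 19.8 CPM with LPS alone. These groups overlapped throughout, and the fold change was 1.03 (95% interval 0.814 to 1.32, adjusted p = 0.964 by edgeR). Asl had 39.3, 42.9 and 33.6 CPM with 3A2, against 42.6, 40.7 and 42.4 CPM with LPS alone. Replicate 3 with 3A2 was the lowest of the 6, replicate 2 with 3A2 the highest, and the fold change was 0.923 (0.795 to 1.07, adjusted p = 0.842). Its log2 fold change of -0.12 was -0.025 without 3A2 replicate 3, -0.20 without 3A2 replicate 2 and -0.00052 with the mitochondrial covariate.

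Nos2, which encodes inducible nitric oxide synthase, had overlapping levels and a narrow interval around no change. It had 361, 374 and 340 CPM with 3A2, against 355, 360 and 375 CPM with LPS alone. The highest library was an LPS library and the lowest a 3A2 library, and the other 4 lay between them. The fold change was 0.987, and its 95% interval ran from 0.903 to 1.08 (adjusted p = 0.964 by edgeR).

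Gch1 had the smallest p of the 8 tested members. It encodes GTP cyclohydrolase 1, which starts the synthesis of tetrahydrobiopterin, a cofactor that nitric oxide synthases need. It had 39.3, 41.1 and 41.1 CPM with 3A2, against 44.8, 49.8 and 47.3 CPM with LPS alone. Every 3A2 library lay below every LPS library. The fold change was 0.856 (95% interval 0.748 to 0.978), and edgeR gave an unadjusted p of 0.0245 and an adjusted p of 0.734, so it was not called. The unadjusted p was 0.114 without LPS replicate 2, 0.0528 without LPS replicate 3, 0.0807 without 3A2 replicate 1 and 0.0676 by DESeq2. Without the 3A2 library rich in mitochondrial mRNA, replicate 3, the log2 fold change was -0.24, against -0.23 with all libraries. Set against Nos2 within each library, the log2 ratio of Gch1 counts to Nos2 counts was -3.20, -3.19 and -3.05 with 3A2, against -2.99, -2.85 and -2.99 with LPS alone. This ratio does not depend on the scaling between libraries. Its groups did not overlap, with the closest values at -3.05 with 3A2 and -2.99 with LPS alone. The ratio reuses the same Gch1 counts, so it is no separate support.

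The bases before the start of Gch1 are shown because it is the only member whose 3A2 libraries all lay lower with enough counts to be tested. The sequence is RefSeq's for GRCm38.p6, at chr14:47189414-47189663 on the minus strand, and capitals mark matches to any of 8 short motifs searched on both strands.
Gch1: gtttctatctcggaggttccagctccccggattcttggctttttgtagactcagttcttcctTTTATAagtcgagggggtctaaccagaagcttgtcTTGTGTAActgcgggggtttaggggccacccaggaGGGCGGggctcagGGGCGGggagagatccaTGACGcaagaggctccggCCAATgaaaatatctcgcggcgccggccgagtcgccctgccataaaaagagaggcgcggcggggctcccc
The window holds 2 GC boxes (GGGCGG, found in 32.7% of 32851 promoter windows of 250 bases), beginning 118 and 105 bases before the start. A CRE half-site (TGACG, in 17.8% of windows) begins 88 bases and a CCAAT box (CCAAT, in 33.8%) 70 bases before it. A C/EBP motif (TTNNGNAA, in 36.8%) and, on the other strand, a TATA motif (TATAAA, in 12.4%) begin 153 and 188 bases before it. An NF-kappaB motif (GGG and TTCC with NNN between them, in 4.65%), an E-box (CACGTG, in 6.02%) and an AP-1 motif (TGANTCA, in 6.75%) had no match. No match overlapped another, and a match is a run of letters, not a site shown to be bound.

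The arginases were scarce in both groups. Arg1, the cytosolic arginase of liver and of macrophages given interleukin-4, had 17, 12 and 13 counts with 3A2, against 10, 9 and 16 counts with LPS alone. This is 2.76, 1.85 and 2.17 CPM with 3A2, against 1.46, 1.204 and 2.46 CPM with LPS alone, and the groups overlapped. Over the group's summed counts and unscaled totals it is 2.23 CPM with 3A2 (exact 95% Poisson interval 1.61 to 3.02) and 1.69 CPM with LPS alone (1.18 to 2.35), counting error only. The fold change was 1.33 with a 95% interval of 0.765 to 2.32 (adjusted p = 0.847 by edgeR), the widest interval of the 8, so these counts do not resolve a difference of that size. Its log2 fold change of 0.41 was 0.21 without LPS replicate 2, 0.25 without 3A2 replicate 1 and 0.75 without LPS replicate 3. It was over the low-count filter in all 3 of the 3A2 libraries and in 1 LPS library, where the filter asks for about 1.54 CPM in 3 libraries.

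Arg2, the mitochondrial arginase, had 0 counts in all 3 of the 3A2 libraries and 2, 1 and 1 counts with LPS alone. Both groups lay within the 3 counts that a count of 0 allows in a library, so no fold change is given, although no 3A2 library had a count and every LPS library had at least 1. The counts of Arg1 to Nos2 stood at a log2 ratio of -7.03, -7.66 and -7.29 with 3A2, against -7.92, -8.22 and -7.25 with LPS alone. The groups overlapped in this ratio.

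Odc1 ranked 10 among 10323 genes by mean CPM per kilobase. It encodes ornithine decarboxylase, the first enzyme of polyamine synthesis, and took 0.671% to 0.734% of all counts in a library. It had 7150, 7163 and 7431 CPM with 3A2, against 6731, 6758 and 6743 CPM with LPS alone. Every 3A2 library lay above every LPS library. The fold change was 1.07 (95% interval 0.996 to 1.16), and edgeR gave an unadjusted p of 0.0623 and an adjusted p of 0.757. The unadjusted p was 0.0321 by DESeq2, 0.0261 by limma-voom and 0.0115 with the summed mitochondrial mRNA as a covariate. It was 0.109 with the replicate number as a block, 0.130 to 0.1565 without any single LPS library, 0.101 without 3A2 replicate 1 and 0.0568 without 3A2 replicate 2. The LPS libraries had a coefficient of variation of 0.199% after scaling and 0.875% on unscaled totals, and on unscaled totals the groups did not overlap either. Without 3A2 replicate 3 the log2 fold change was 0.086, against 0.10 with all libraries, and the unadjusted p was 0.0374. GENCODE M21 places a small nucleolar RNA gene, Gm22748, inside Odc1 on the same strand, with 5512 counts of its own over the 6 libraries.

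Oaz1, antizyme 1, binds ornithine decarboxylase and sends it to the proteasome. Its protein is made only when ribosomes shift by 1 base at an early stop codon, which polyamines favour, so the mRNA level does not give the amount of antizyme. The site is shown from GENCODE M21 (GRCm38, chr10:80828283-80828309, plus strand), as transcribed and as joined in the coding model, where 1 base of the stop codon is skipped. Capitals mark the stop codon and, in the second line, what is left of it.
Oaz1 transcribed: cggtggtgctccTGAtgtccctcaccc
Oaz1 coding model: cggtggtgctccGAtgtccctcaccc
In this model 68 codons come before the stop codon, and the whole protein has 227. Oaz1 had 241, 266 and 222 CPM with 3A2, against 247, 256 and 251 CPM with LPS alone. The 3A2 libraries held both the highest and the lowest value, and the LPS libraries lay between them. The fold change was 0.968 (95% interval 0.876 to 1.07, adjusted p = 0.912 by edgeR). The pseudogene Oaz1-ps, from which reads may not be separable, had 102 counts with 3A2 and 102 with LPS alone. The log2 ratio of Odc1 to Oaz1 counts was 4.89, 4.75 and 5.06 with 3A2, against 4.77, 4.72 and 4.75 with LPS alone. These overlapped, with replicate 3 of the 3A2 group the highest.

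Sat1 encodes spermidine and spermine acetyltransferase, the enzyme that marks polyamines for export or breakdown. It had 334, 312 and 352 CPM with 3A2, against 309, 306 and 292 CPM with LPS alone. Every 3A2 library lay above every LPS library, with the closest pair at 312 CPM with 3A2 and 309 CPM with LPS alone. The fold change was 1.10 (95% interval 1.00 to 1.21), and edgeR gave an unadjusted p of 0.0444 and an adjusted p of 0.748. Without 3A2 replicate 3 the log2 fold change was 0.096 (unadjusted p = 0.0750), against 0.14 with all libraries. With the summed mitochondrial mRNA as a covariate it was 0.071, and the unadjusted p was 0.135. It was 0.0077 without 3A2 replicate 2, and 0.0676 to 0.170 without any other single library. The log2 ratio of Sat1 to Odc1 counts was -4.42, -4.52 and -4.40 with 3A2, against -4.45, -4.46 and -4.53 with LPS alone, and these overlapped.

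The bases before Odc1 and Sat1 are shown because these are the members whose 3A2 libraries all lay above the LPS libraries. They are RefSeq's for GRCm38.p6, at chr12:17544623-17544793 (plus strand, ending where GENCODE's gene begins) and chrX:155216450-155216699 (minus strand), with capitals as for Gch1.
Odc1: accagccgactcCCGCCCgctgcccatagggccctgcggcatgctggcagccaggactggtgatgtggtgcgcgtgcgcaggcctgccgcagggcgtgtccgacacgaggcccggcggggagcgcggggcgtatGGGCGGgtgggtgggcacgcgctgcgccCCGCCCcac
Sat1: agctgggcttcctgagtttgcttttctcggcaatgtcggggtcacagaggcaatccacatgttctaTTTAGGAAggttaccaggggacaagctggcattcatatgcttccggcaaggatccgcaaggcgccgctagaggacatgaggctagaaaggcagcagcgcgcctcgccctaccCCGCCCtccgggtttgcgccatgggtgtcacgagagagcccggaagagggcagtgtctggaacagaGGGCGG
The Odc1 window of 171 bases holds 3 GC boxes, a motif found in 19.6% of windows of that length, and has a GC content of 77.2%. The Sat1 window holds 2 GC boxes and 1 C/EBP motif, and its GC content is 59.6%. The windows of Ass1 (187 bases) and Oaz1 (250 bases), not printed here, hold 0 GC boxes. That of Gch1, whose 3A2 libraries all lay lower, holds 2. A window was available for 5 of the 10 members, and a link between motifs and fold changes was not tested.

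**Figure D3:**
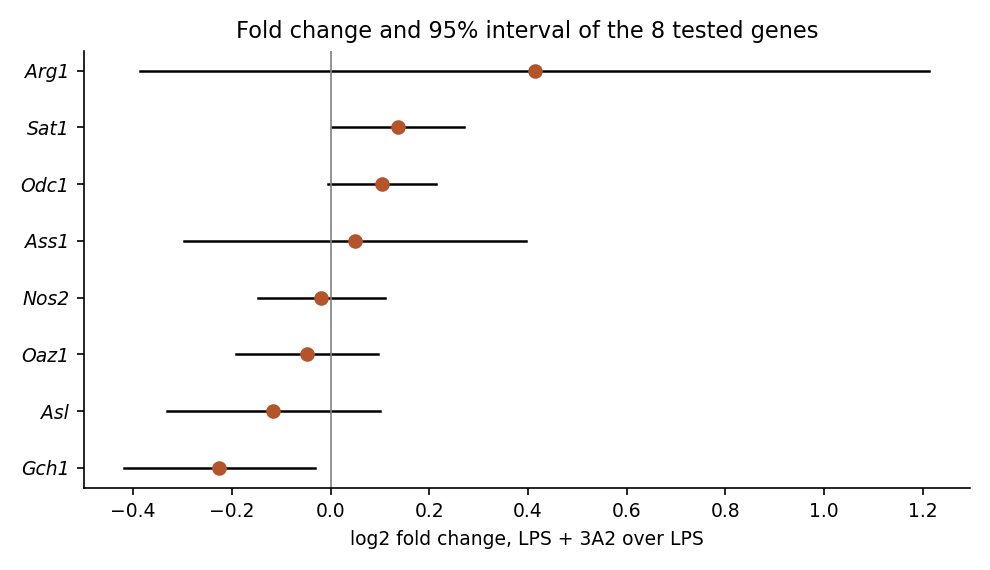
Log2 fold change of LPS plus 3A2 over LPS (points) with its 95% interval (lines) for the 8 tested genes, from edgeR. Gch1 lies lowest at -0.23, Sat1 and Odc1 lie at 0.14 and 0.10, and Arg1 has the widest interval, from -0.39 to 1.21.

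The intervals show which sizes of difference the data leave room for. For 7 of the 8 tested members, all but Arg1, the 95% interval stayed inside a 1.5-fold difference both ways. For 3 of them, Nos2, Odc1 and Oaz1, it stayed inside 1.2-fold. For all genes tested these counts were 9147 and 3009 of 11498. The median absolute log2 fold change was 0.11 among the 8 and 0.095 among all genes. Replicate 3 with 3A2 was the highest of the 6 libraries for 2 of the 8 and the lowest for 3.

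Other genes of the pathway were examined as lists, whose counts include the members on them. Of 82 further genes on 11 lists, 81 were in the table, 62 were tested and 0 were called, with 33 above 0 and 29 below on the log2 fold change scale. At an unadjusted p under 0.05 by edgeR there were 3 higher and 1 lower, against 3.43% and 3.09% of all genes tested. Their median log2 fold change was 0.014. Among 8 genes of tetrahydrobiopterin synthesis and recycling, 7 were tested, with 3 above 0 and 4 below, and Gch1 had the smallest p.

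The lists of nitric oxide and arginine genes held no further gene at an unadjusted p under 0.05 beyond Txn1. Of 6 tested genes of nitric oxide synthases and their partners, 2 lay above 0 and 4 below. Nosip, which binds nitric oxide synthase, stood at 0.894-fold (95% interval 0.745 to 1.07). Its log2 fold change of -0.16 was -0.35 without 3A2 replicate 2, -0.10 without 3A2 replicate 1, -0.053 without 3A2 replicate 3 and 0.0095 with the mitochondrial covariate. Of 6 tested enzymes of arginine, citrulline and ornithine, 4 lay above 0 and 2 below, with Gatm, which starts creatine synthesis, at 1.02-fold (0.910 to 1.15). Of 7 tested amino acid carriers, 4 lay above 0 and 3 below, with Slc38a9, a lysosomal arginine sensor, at 1.16-fold (0.959 to 1.41). Its log2 fold change of 0.22 was 0.33 without 3A2 replicate 2, 0.069 without 3A2 replicate 3 and 0.012 with the mitochondrial covariate. The proline list had 3 above 0 and 2 below, with Oat, ornithine aminotransferase, at 1.05-fold (0.926 to 1.197) and Aldh18a1 at 0.957-fold (0.842 to 1.09). Among 6 tested genes of nitric oxide sensing and denitrosylation, 4 lay above 0 and 2 below. Txn1, thioredoxin, stood at 1.11-fold (1.00 to 1.23, unadjusted p = 0.0430, adjusted p = 0.748 by edgeR) and Akr1a1 at 1.04-fold (0.947 to 1.13). The log2 fold change of Txn1, 0.15, was 0.089 without 3A2 replicate 3, 0.20 without 3A2 replicate 1 and 0.098 with the mitochondrial covariate.

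Of 9 tested genes of polyamine synthesis and methyl donor supply, 7 lay above 0 and 2 below on the log2 fold change scale. Their median was 0.10, and 0 were called. Of all 11498 genes tested, 5795 lay above 0, with a median of 0.0017. Of 4 tested antizymes and antizyme inhibitors, 2 lay above 0 and 2 below. Oaz2, antizyme 2, measured 71.8 ± 4.36 CPM with 3A2 and 62.4 ± 4.49 CPM with LPS alone (SD, n = 3 each), or 1.15-fold (95% interval 1.02 to 1.30, unadjusted p = 0.0268, adjusted p = 0.743 by edgeR). The log2 fold change of Oaz2, 0.20, was 0.15 without 3A2 replicate 3 and 0.16 with the mitochondrial covariate. It ran from 0.15 to 0.25 over the other settings. Of 6 tested genes of polyamine breakdown and transport, 4 lay above 0 and 2 below. Atp13a3, a polyamine transporter, measured 194 ± 26.1 CPM with 3A2 and 172 ± 2.88 CPM with LPS alone, or 1.13-fold (1.01 to 1.27, unadjusted p = 0.0422, adjusted p = 0.748). Its log2 fold change ran from 0.033 to 0.25 over the other settings. The hypusination list, for the spermidine-derived modification of Eif5a, had 2 above 0 and 1 below, with Eif5a at 1.02-fold (0.942 to 1.11) and Dhps at 1.07-fold (0.873 to 1.31).

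The list of transcription factors tied to Nos2, Arg1 or Odc1 also holds Jak2, a kinase. Of its 12 tested genes, 9 lay below 0 on the log2 fold change scale, with a median of -0.057. Of all 11498 genes tested, 5703 lay below 0. Cebpb, which encodes C/EBP beta, had the smallest p of all these lists. It measured 203 ± 20.3 CPM with 3A2 and 231 ± 7.15 CPM with LPS alone (SD, n = 3 each), or 0.877-fold (95% interval 0.790 to 0.973, unadjusted p = 0.0160, adjusted p = 0.719 by edgeR). Its log2 fold change ran from -0.27 without 3A2 replicate 2 (adjusted p = 0.0721) to -0.088 with the mitochondrial covariate, where the adjusted p was 0.707. Hif1a, a hypoxia-responsive factor, stood at 1.05-fold (0.926 to 1.19).

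**Figure D4:**
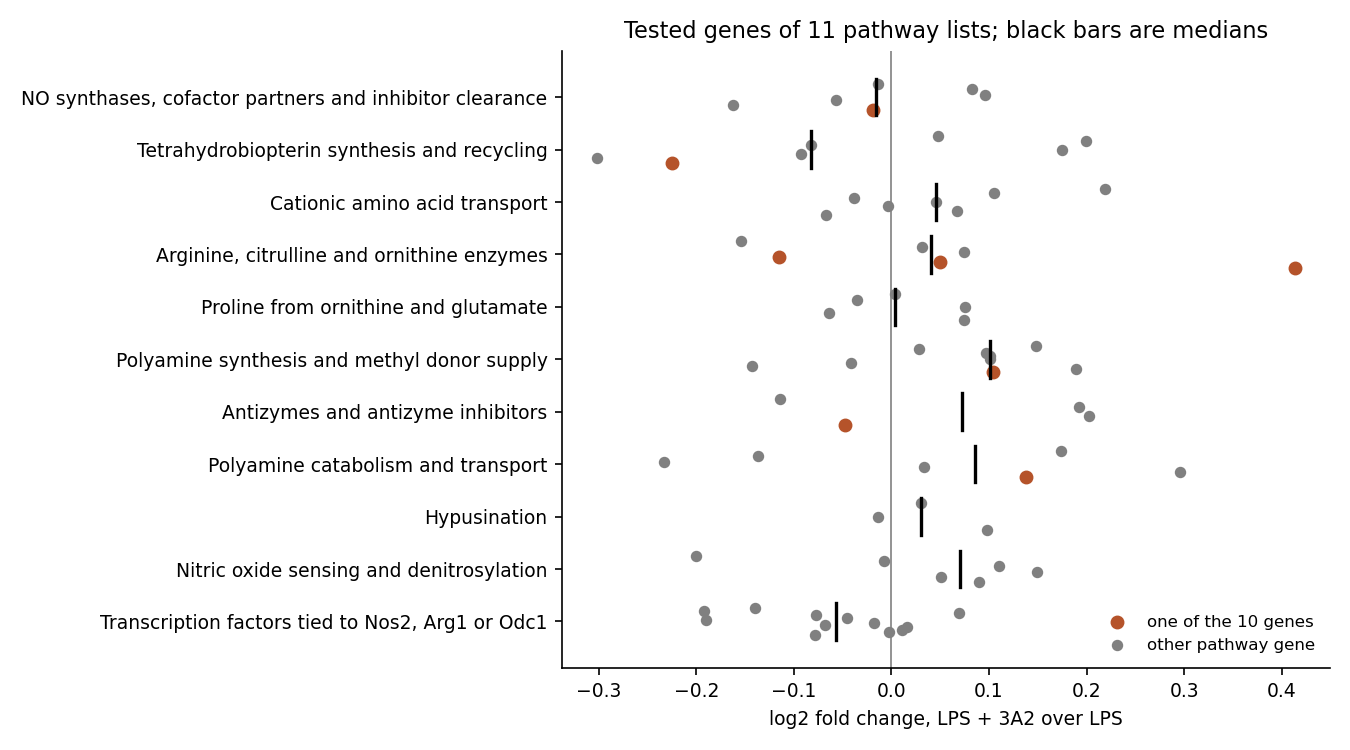
Log2 fold change of LPS plus 3A2 over LPS of the tested genes on each of 11 pathway lists, with members in orange, other genes in grey and the median of each list as a black bar. All genes but Arg1 lie between 0.811-fold and 1.23-fold, and 0 passed the threshold.

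The genes whose pattern over the 6 libraries was most like that of a member were named from Pearson's r of log2 CPM, as a description. For Nos2 these were Stxbp2 (r = 0.994) and Slc16a3 (r = 0.993), for Odc1 Oxr1 (r = 0.992) and Gar1 (r = 0.991), and for Arg1 Sfr1 (r = 0.982) and Praf2 (r = 0.980). Each was the best among about 8920 genes compared over the same 6 libraries, which share depth and composition, so these values are a description only. Slc16a3 had 322, 341 and 298 CPM with 3A2, against 314, 326 and 341 CPM with LPS alone, lowest in 3A2 replicate 3, as Nos2 was. Gar1 had 27.3, 28.6 and 31.4 CPM with 3A2, against 23.7, 23.5 and 23.2 CPM with LPS alone. Its groups did not overlap, which follows largely from its choice for likeness to Odc1 and is no separate result.

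Few counts fell on markers of cells other than macrophages. Those of T and B cells summed to at most 0.167 CPM with 3A2 and 0.669 CPM with LPS alone, with Cd3e, Cd4, Cd8a, Ms4a1 and Jchain among those at 0 counts. All 5 epithelial markers were at 0 counts. Those of hepatocytes, which carry arginase and the urea cycle, summed to at most 0.162 CPM with 3A2 and 0.307 CPM with LPS alone, with Ttr, Cps1, Otc and Serpina1a at 0 counts. Fibroblast markers summed to at most 0.334 CPM with 3A2 and 0.439 CPM with LPS alone. Endothelial markers reached 10.7 CPM with 3A2 and 10.4 CPM with LPS alone, and neutrophil markers 6.68 and 7.47 CPM.

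**Figure D5:**
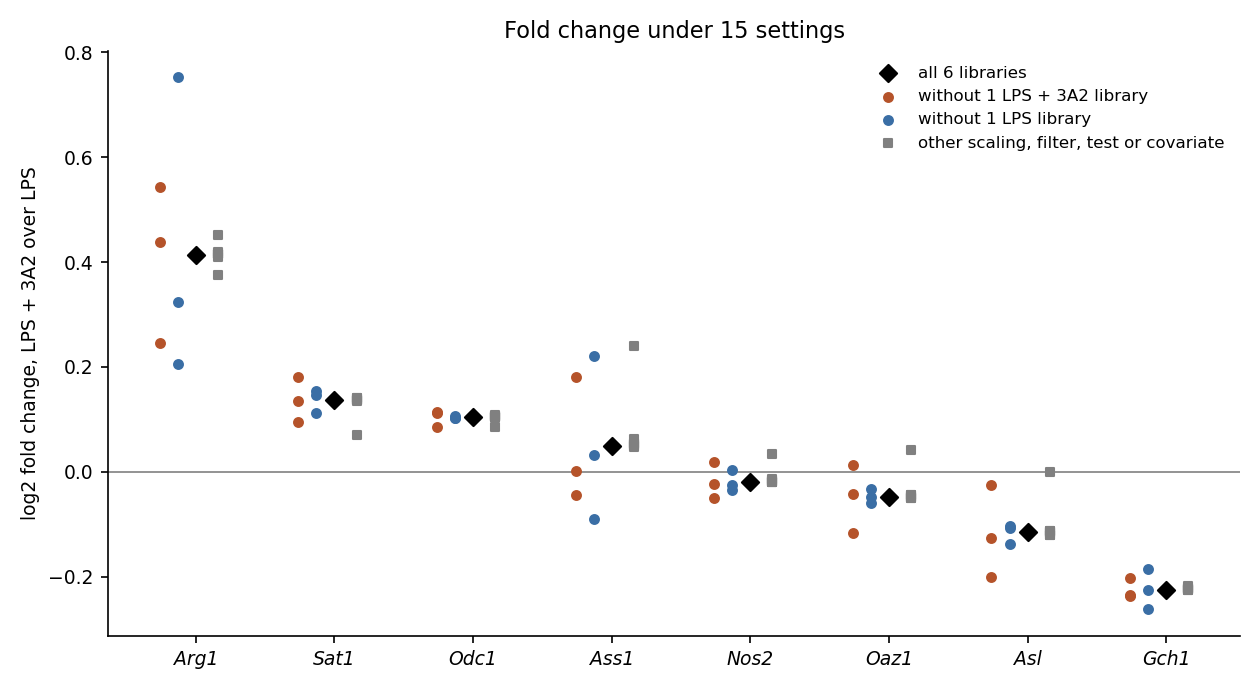
Log2 fold change of the 8 tested genes with all 6 libraries (black diamonds), without 1 library with LPS plus 3A2 (orange) or LPS alone (blue), and with another scaling, filter, test or covariate (grey). Gch1 stays between -0.26 and -0.19, Odc1 between 0.085 and 0.11 and Sat1 between 0.071 and 0.18, while Nos2, Ass1 and Oaz1 cross 0 under some settings.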

How the data were processed

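The authors deposited raw read counts per gene symbol, 1 column per library. HISAT2 and edgeR are named without version or role, and GRCh38, a human build, is given, per the submitters' processing notes. Not given in the sources used here are the counting program, the annotation and whether counting used strand. Symbols are those of mouse: 39282 of 40773 match RefSeq's table for GRCm38. Printed coordinates are those of the reference sequences. Cells in 3 unnamed columns were not used. Ribosomal RNA was depleted and libraries were strand-specific and paired-end, per the labels' protocols.

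Groups and replicate numbers came from the titles. Genes with a count numbered 18179, and filterByExpr left 11498. TMM scaling and edgeR's robust quasi-likelihood test (version 4.0.16 in R 4.3.3, no covariate) were applied, two-sided, Benjamini-Hochberg adjusted over all genes, threshold 0.05. Intervals are at the 95% level. The biological coefficient of variation was 0.0768. The fit was tested on simulated data with the same dispersion for every gene and independent libraries. That setting is simpler than these libraries, so the test does not show how the fit behaves on them. Every pair of libraries differed by more than sampling noise (chi-square per degree of freedom 3.47 to 23.4). The lowest value was between LPS replicates 2 and 3, and the highest between 3A2 replicates 2 and 3. Pairs across the groups ran from 3.555, between the replicates 1, to 21.3, between the replicates 3.

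Gene members and lists were chosen with earlier results of these data known. All members were named, in each list the tested gene with the smallest p and that with the highest CPM, and for Nos2, Arg1 and Odc1 the 2 genes of highest r. One gene that this rule names is not reported here. Other genes named, such as Oaz1-ps, Gm22748 and Nos3, were chosen after their values were seen. Lengths came from the longest coding transcript in GENCODE M21, promoters from RefSeq, which held 5 of the 10. GENCODE places genes on the other strand over Arg2 (Vti1b) and Slc7a2, and since the strand setting is unknown, such reads cannot be assigned with certainty. Alternatives were DESeq2 1.42.0, limma-voom (limma 3.58.1), other scalings and filters, the replicate number as a block, mitochondrial mRNA as a covariate, and leaving out each library.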

Additional observations from a re-analysis of the deposited data

How the results depend on the processing

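No member and no pathway gene was called under any of the 14 other settings, nor with all libraries at an adjusted p under 0.1, and the log2 fold changes of Arg1 (0.21 to 0.75), Gch1, Odc1 and Sat1 kept their sign in each, while that of Asl ran from -0.20 to -0.00052. Over all genes, edgeR called 13 higher and 3 lower without a filter on low counts, 8 higher and 10 lower with mitochondrial mRNA as a covariate, and DESeq2 called 1 higher. Deviations from the group means correlated with r of -0.163 to 0.0253 between same-numbered libraries and -0.169 to 0.168 between differently numbered ones. With 3 libraries per group these values do not show a pairing by replicate number and cannot exclude it. With the number as a block 1 gene was called higher. Leaving out each library gave 0 to 20 genes higher (20 without 3A2 replicate 2) and 0 to 5 lower. Members higher at an unadjusted p under 0.05 numbered 2 without a filter, by DESeq2 and by limma-voom, 0 with the block, and 0 to 1 with a library left out. Members lower numbered 0 by DESeq2 and 0 to 1 with a library left out. Tested members whose groups did not overlap numbered 2 to 3 on the higher side and 1 to 3 on the lower with a library left out, the 3 lower being Gch1, Asl and Oaz1 without 3A2 replicate 2. Over all genes the share was then 9.37% to 15.4% on the higher side and 10.1% to 16% on the lower, the highest of each without 3A2 replicate 2. These counts were added after the data were seen.

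Reversed log2 fold changes were small and far from the threshold, and the cause was not tested. With mitochondrial mRNA as a covariate they were 0.035 for Nos2, 0.043 for Oaz1, 0.066 for Aldh18a1, -0.086 for Hif1a, 0.0095 for Nosip, 0.047 for Slc16a3 and 0.071 for Stxbp2. Without LPS replicate 1 Ass1 was -0.089 and Gatm -0.012. Without LPS replicate 3 Nos2 was 0.0037, Slc16a3 0.0022 and Stxbp2 0.014. Without 3A2 replicate 2 Ass1 was -0.044. Without 3A2 replicate 3 Nos2 was 0.019, Oaz1 0.013, Aldh18a1 0.020, Hif1a -0.033, Slc16a3 0.022 and Stxbp2 0.034. The range with a library left out was -0.051 to 0.019 for Nos2, -0.089 to 0.22 for Ass1, -0.12 to 0.013 for Oaz1, -0.18 to 0.020 for Aldh18a1, -0.012 to 0.087 for Gatm, -0.033 to 0.16 for Hif1a, -0.076 to 0.022 for Slc16a3 and -0.12 to 0.034 for Stxbp2. On unscaled totals Odc1 averaged 6780 CPM with LPS alone. Arg1, Arg2 and Slc7a2 had the fewest counts of the members, at most 17 in a library.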

Other observations

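Nos3, the endothelial nitric oxide synthase, was below the filter and not tested. It had 8, 11 and 9 counts with LPS plus 3A2, against 2, 2 and 6 with LPS alone, and the groups did not overlap. Its level was 0.268 to 1.69 CPM, and it was chosen after its values were seen. The share of untested genes whose groups do not overlap was not computed. Nos1, the neuronal form, also stayed below the filter, so Nos2 was the only nitric oxide synthase gene tested.

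Several genes of the same chemistry had 0 counts in all 6 libraries. They include Gucy1a1 and Gucy1b1, the subunits of the nitric oxide receptor guanylate cyclase, Otc and Cps1 of the urea cycle, and Pcbd1 of tetrahydrobiopterin recycling.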
